A study of Mus musculus with 69 samples.

Results

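The 7 cadherin switch genes were Cdh1, Cdh2, Cdh3, Cdh4, Cdh6, Cdh11 and Cdh13, chosen by symbol out of 55964 gene identifiers that were counted in at least 1 table of the series. The rule used symbols and no measured value, but the 7 genes were chosen with earlier results of these data known. They encode E-cadherin (Cdh1), N-cadherin (Cdh2), P-cadherin (Cdh3), R-cadherin (Cdh4), K-cadherin (Cdh6), OB-cadherin (Cdh11) and T-cadherin (Cdh13). RNA-seq was performed on pituitary, hypothalamus and ovary of female C57BL/6J mice, giving 69 libraries in 18 groups of 3 or 4. WT mice carried unaltered Zeb1, Zeb1_200H mice (200H) were heterozygous and Zeb1_200M mice (200M) homozygous for a germline knock-in allele of Zeb1, in which point mutations disrupt the predicted miR-200a/b sites of the 3′ UTR. The library titles name no transgene or Cre, and the knock-in mice came from 2 embryonic stem cell clones that the library labels do not tell apart. The young cohort was 8–12 weeks old and virgin, the older cohort was 28–36 weeks old and had been through a breeding trial, and tissues of both were taken at proestrus. The comparisons asked whether cadherin transcripts move when Zeb1 escapes these microRNAs, in which of the 3 tissues, and whether heterozygotes differ from homozygotes.

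Cadherins are calcium-dependent adhesion proteins that bind like or related cadherins on neighboring cells. Classical cadherins hold p120-catenin and beta-catenin on their cytoplasmic tails, and alpha-catenin links the complex to actin. In the epithelial–mesenchymal transition, E-cadherin is exchanged for N-cadherin or other mesenchymal cadherins, and the zinc-finger repressor ZEB1 is known for binding E-box elements of the Cdh1 promoter. Endocrine cells of the anterior pituitary are epithelial in origin, and N-cadherin and E-cadherin are both known from them. T-cadherin differs from the other members because it has no cytoplasmic tail and is held in the membrane by a glycolipid anchor.

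The microRNAs from which the knock-in allele is freed are shown here because their seeds define the letters searched in the cadherins. Mature sequences are from RefSeq (GRCm38.p6), written 5′ to 3′, and capitals mark the seed, bases 2 to 8. The first pair shares the seed AACACUG and the other 3 share AAUACUG. The genes lie on the minus strand of chromosomes 4 and 6.
mmu-miR-200a-3p: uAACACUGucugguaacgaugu
mmu-miR-141-3p: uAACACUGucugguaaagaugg
mmu-miR-200b-3p: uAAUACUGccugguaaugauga
mmu-miR-200c-3p: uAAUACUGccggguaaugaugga
mmu-miR-429-3p: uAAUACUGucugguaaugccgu

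A search of each member's 3′ UTR on the transcript strand (GENCODE annotation of GRCm38) for CAGTGTT, the complement of the first seed, and CAGTATT, the complement of the second, found letters in 3 of the 7 members. The windows below are written 5′ to 3′ with the matched letters in capitals. Cdh6 held CAGTGTT at base 4642 of a 5499-base UTR (chr15:13029541-13029569, minus strand). Cdh11 held CAGTATT at base 705 of 2219 (chr8:102633592-102633620, minus strand), and Cdh13 held CAGTATT at base 405 of 1519 (chr8:119323796-119323824, plus strand).
Cdh6: agaaatggactCAGTGTTgtagaaaaagc
Cdh11: catacaaatatCAGTATTctgacatgtac
Cdh13: gtgtatagaccCAGTATTtgtgtagaaga
Such letters are common. CAGTGTT was present in 55.7% of the 379 UTRs within 10% of the Cdh6 length, and CAGTATT in 21.1% of the 1353 UTRs near the Cdh11 length and 13.9% of the 1391 UTRs near the Cdh13 length. Neither string occurred in the UTR of Cdh1 (1631 bases), Cdh2 (1270 bases), Cdh3 (1847 bases) or Cdh4 (3455 bases). A match describes letters only and is not a site. Of the members, a promoter sequence was at hand for Cdh6 (chr15:13173626-13173925, minus strand), whose 300 bases held 0 copies of the E-box CACCTG on either strand, while 20.2% of 32851 promoters of that length held at least 1. The study gives the motif of ZEB1 and ZEB2 as CAGGTR, where R is A or G, and its CAGGTA form was not searched.

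The members lie on 4 chromosomes in GRCm38, the build the files use. Cdh3 (chr8:106510891-106557297, plus strand) ends 46.1 kb before Cdh1 starts (chr8:106603351-106670246, plus strand). The same chromosome carries Cdh11 (chr8:102632095-102785642, minus strand) and Cdh13 (chr8:118283733-119324921, plus strand). Cdh4 is at chr2:179442431-179899373 on the plus strand and Cdh6 at chr15:13028701-13173675 on the minus strand. Cdh2 (chr18:16588877-16809246, minus strand) is on the chromosome of the edited gene, 10.81 Mb from Zeb1. No exon of a member overlapped an exon of another gene in the annotation.

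Values are CPM (a gene's read count relative to the library total, scaled to the same total in each library) adjusted by TMM within each tissue and cohort. Libraries held 3321845 to 5143128 counts in young hypothalamus and 4527753 to 14655095 in the other tissues and cohorts. Tests were edgeR quasi-likelihood tests over all genes of a comparison, and a gene was called at a Benjamini-Hochberg adjusted p under 0.05. Young libraries were rRNA-depleted and stranded and older ones poly(A)-selected and unstranded, so age, breeding history and library type cannot be told apart between cohorts. Each tissue held markers of its own. Prl was at 28800 CPM or more in every pituitary library and Inha at 463.8 CPM or more in every ovary library. Pmch was at 50.8 CPM or more in every hypothalamus library and at most 0.26 CPM in pituitary. Other genes of the hypothalamic neuron list were less distinct. Snap25, at 982.4 CPM or more in hypothalamus, was also at 303.6 to 624 CPM in pituitary. In young hypothalamus Agrp was at 0 to 2.05 CPM and Hcrt at 0.279 to 34.6 CPM. Of the ovary libraries 5 stood apart in their content of oviduct epithelial markers, and ovary results are given with and without them. Replicates are separate libraries of a group, and p-values measure the spread between these libraries. Zeb1 itself stood at 97.3 ± 1.65 CPM in young WT pituitary (SD, n = 3) and 138.4 ± 4.27 in 200M (n = 4), a log2 change of 0.52 (SE 0.06, adjusted p = 2.39e-05, edgeR). In the older pituitary Zeb1 stood at 58.6 ± 3.11 CPM in WT (n = 4) and 85.7 ± 6.49 in 200M (n = 3), a log2 change of 0.55 (SE 0.09, adjusted p = 0.000833, edgeR). The 200H libraries of both cohorts were also raised for Zeb1, by log2 0.44 (adjusted p = 0.000895) and 0.33 (adjusted p = 0.0139), while no comparison in hypothalamus or ovary was called for it. In hypothalamus every 200M library was nevertheless below every WT library in both cohorts. Mean Zeb1 there was 199.2 CPM in 200M and 223.5 in WT in the young mice (log2 −0.17, adjusted p = 0.871, edgeR). In the older mice it was 113.6 and 135.8 CPM (log2 −0.26, adjusted p = 0.161).

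The 7 cadherins were distributed very differently over the WT tissues. On a per-length scale (CPM per kb of annotated exon), N-cadherin was the most abundant member in young WT pituitary, at 10.9 ± 0.523 CPM per kb (SD, n = 3). OB-cadherin followed at 6.32 ± 0.589, E-cadherin at 2.99 ± 0.375 and R-cadherin at 1.49 ± 0.175 CPM per kb. T-cadherin (0.854 ± 0.324) and K-cadherin (0.416 ± 0.0943) came next, and P-cadherin was last at 0.125 ± 0.0715 CPM per kb. N-cadherin made up 47.3% ± 1.43 of the summed per-length level of the 7 genes, OB-cadherin 27.3% ± 1.17, E-cadherin 12.9% ± 1.21 and T-cadherin 3.68% ± 1.33. The older WT pituitary had the same order, with N-cadherin at 6.51 ± 0.486 CPM per kb and P-cadherin at 0.0934 ± 0.0810 (n = 4).

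Hypothalamus was the tissue of N-, R-, K- and T-cadherin. Cdh13 stood at 133.1 ± 13.5 CPM in young WT hypothalamus (SD, n = 4) and 9.60 ± 3.64 CPM in young WT pituitary (n = 3), a 14.5-fold difference (adjusted p = 5.66e-17, edgeR). Cdh4 (81.7 ± 2.90 against 10.8 ± 1.27 CPM) was 7.95-fold and Cdh6 (38.0 ± 5.99 against 3.76 ± 0.851 CPM) 10.6-fold higher in hypothalamus, and Cdh2 was 2.06-fold higher. In all, 5 of 6 tested members were lower in pituitary than in hypothalamus, where 72.2% of all tested genes differed between the tissues in either direction. Cdh1, at 12.6 ± 2.96 CPM in hypothalamus and 13.7 ± 1.71 in pituitary, differed by a log2 of 0.05 (95% interval −0.33 to 0.43). The same contrast of older WT mice called 5 of 6 members, 4 lower and Cdh1 3.28-fold higher in pituitary, with 76.8% of all tested genes called. Cdh11 was not called there (log2 −0.19, adjusted p = 0.0702, edgeR) although its groups did not overlap, and it passed the threshold without WT pituitary replicate 3 (adjusted p = 0.0448) and with DESeq2 (adjusted p = 0.0365).

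The young WT ovary held most of the P-, E- and OB-cadherin. Cdh3 had 19.6 ± 2.97 CPM in ovary (SD, n = 4) and 0.548 ± 0.313 CPM in pituitary, a 31.9-fold difference (adjusted p = 3.14e-10, edgeR). Cdh11 reached 167.9 ± 13.4 CPM, 2.68-fold above pituitary and 1.48-fold above hypothalamus, and Cdh1 reached 39.3 ± 11.1 CPM, 2.56-fold above pituitary. These WT ovary libraries also held the oviduct epithelial marker Ovgp1, at 177.5 to 445.1 CPM. In young ovary 200H replicate 1 and 200M replicate 4, with Ovgp1 at 11.9 and 11.6 CPM, Cdh1 was at 12.15 and 11.24 CPM. The part of oviduct tissue in the Cdh1 difference was not tested. Of the 7 members, 6 differed between pituitary and ovary, where 68.3% of tested genes did, and 7 of 7 differed between hypothalamus and ovary, where 76.7% did. The exception was Cdh13, at 9.60 ± 3.64 CPM in pituitary and 12.0 ± 1.53 in ovary (log2 −0.17, 95% interval −0.62 to 0.29). Without WT pituitary replicate 1, the library with the highest Cdh13 of its group, that difference passed the threshold (log2 −0.48, adjusted p = 0.0398). From highest to lowest tissue, the order was hypothalamus, pituitary, ovary for Cdh2 and Cdh4, hypothalamus, ovary, pituitary for Cdh6, and ovary, hypothalamus, pituitary for Cdh11, each neighboring pair being called. For Cdh1 ovary was highest, and pituitary and hypothalamus did not differ beyond their spread.

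**Figure D1:**
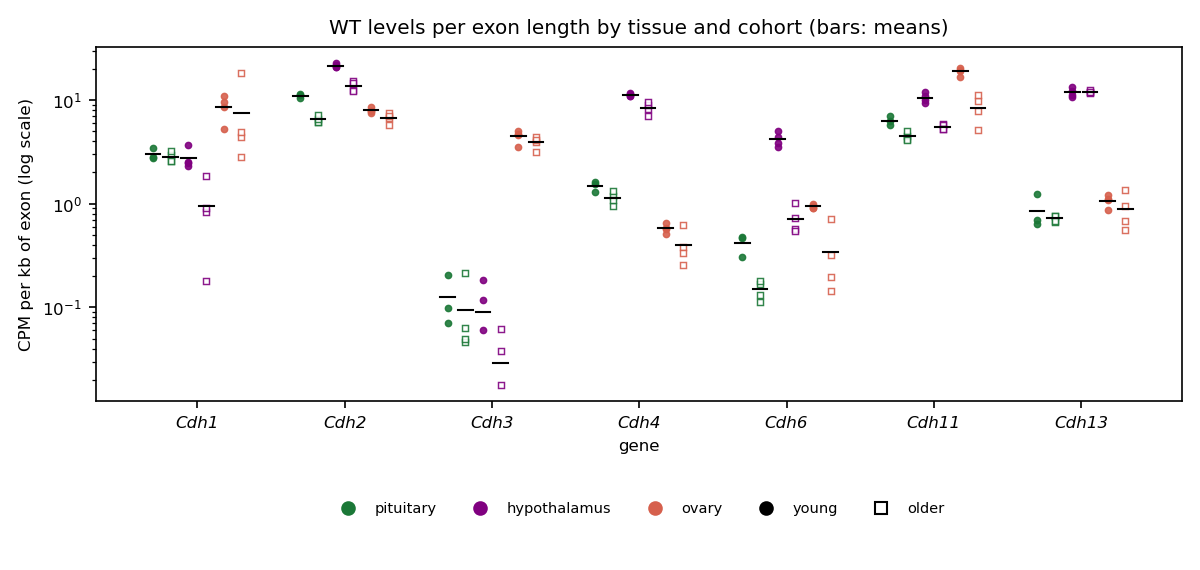
Level of the 7 cadherins in WT libraries of each tissue and cohort, as CPM per kb of annotated exon on a log axis, with filled circles for young and open squares for older libraries and bars for group means. Libraries with a Cdh3 count of 0 have no place on the log axis and are not drawn. Cdh13, Cdh4 and Cdh6 are highest in hypothalamus and Cdh3 in ovary, and Cdh2 is the highest member in pituitary, at 10.9 CPM per kb in the young mice.

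In the young pituitary of both mutant genotypes N-, R-, K-, OB- and T-cadherin transcripts were raised, whereas E-cadherin was at nearly the same level in all 3 genotypes. In 200M against WT, 5 of 6 tested members were called and all 5 were raised, where 21.5% of 18199 tested genes were called in either direction and 11.5% were raised. In 200H against WT, the 5 raised members were again 5 of 6, where 12.3% of tested genes were called and 6.56% were raised. The median log2 change of the 6 tested members was 0.86 in 200M and 0.79 in 200H, and over all tested genes it was 0.002 and 0.007. Both comparisons use the same 3 WT libraries. In bulk tissue a gene at a higher level per cell and a larger share of the cells that express it cannot be told apart.

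T-cadherin, a receptor for adiponectin without a cytoplasmic tail, had the largest change among the members. Cdh13 stood at 13.8, 7.22 and 7.78 CPM in the 3 young WT pituitary libraries, at 26.01, 25.4, 27.7 and 24.5 CPM in 200H and at 30.6, 33.6, 48.2 and 45.1 CPM in 200M. The 3 genotypes formed separate ranges, with every 200H library above every WT library and every 200M library above every 200H library. The change from WT was 4.11-fold in 200M (95% interval 3.0 to 5.62, adjusted p = 8.03e-06, edgeR) and 2.702-fold in 200H (2.05 to 3.56, adjusted p = 0.000244). Between 200M and 200H the log2 difference was 0.60 (95% interval 0.32 to 0.88). It was not called by edgeR (adjusted p = 0.235), and was called by edgeR without the filter on low counts (adjusted p = 1.14e-05) and by DESeq2 (adjusted p = 0.0174).

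OB-cadherin, a mesenchymal cadherin first known from osteoblasts, was about as high in heterozygotes as in homozygotes. Cdh11 stood at 55.3, 51.5 and 61.9 CPM in young WT pituitary, at 125.3, 143, 85.2 and 107 CPM in 200H and at 129.3, 103.9, 98.5 and 111.5 CPM in 200M. All 8 mutant libraries lay above the highest WT library, and the mutant groups overlapped each other. The change was 1.99-fold in 200M (1.72 to 2.30, adjusted p = 4.55e-06, edgeR) and 2.06-fold in 200H (1.66 to 2.57, adjusted p = 0.000449).

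N-cadherin, the main cadherin of this tissue by level, had the smallest change of the 5. Cdh2 was at 91.7, 83.6 and 89.7 CPM in young WT pituitary, 104.5, 112.9, 127.7 and 107.8 CPM in 200H, and 119.5, 115, 108 and 118.2 CPM in 200M. Mutant and WT libraries again did not overlap. The fold was 1.32 in 200M (1.19 to 1.46, adjusted p = 0.000681, edgeR) and 1.29 in 200H (1.14 to 1.47, adjusted p = 0.0124).

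R-cadherin and K-cadherin, cadherins best known from neural tissue and kidney, rose by similar folds from lower levels. Cdh4 was at 11.7, 9.36 and 11.3 CPM in young WT pituitary, 14.2, 17.3, 22.2 and 19.0 CPM in 200H, and 17.8, 16.9, 20.3 and 22.8 CPM in 200M. Its fold was 1.80 in 200M (1.47 to 2.21, adjusted p = 0.000455, edgeR) and 1.69 in 200H (1.32 to 2.15, adjusted p = 0.00845), with no WT library reaching a mutant one. Cdh6 had 27 to 40 counts per WT library and 69 to 85 per mutant library. Those counts correspond to 2.78, 4.17 and 4.32 CPM in WT, 6.24, 5.98, 7.04 and 7.35 CPM in 200H, and 5.49, 7.06, 5.75 and 9.23 CPM in 200M. The Cdh6 groups did not overlap, and the fold was 1.82 in 200M (1.28 to 2.59, adjusted p = 0.0170, edgeR) and 1.78 in 200H (1.30 to 2.45, adjusted p = 0.0217). The Cdh6 calls rested on WT replicate 1, the lowest library, without which the adjusted p was 0.0889 in 200M and 0.102 in 200H, and the 200H call was also lost without 200H replicate 4 (adjusted p = 0.0615). With only the 4 libraries whose replicate number both groups share, 2 of the 5 members raised in 200H were called, and Cdh2 (adjusted p = 0.0792), Cdh4 (0.0990) and Cdh6 (0.124) were not.

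E-cadherin, the epithelial cadherin whose promoter ZEB1 is known to repress in epithelial cells, was not called. Cdh1 stood at 12.6, 12.9 and 15.7 CPM in young WT pituitary, 17.2, 14.9, 13.2 and 10.97 CPM in 200H, and 16.2, 10.5, 14.9 and 14.5 CPM in 200M. The 3 ranges overlapped. The fold was 1.04 in 200M (95% interval 0.822 to 1.30, adjusted p = 0.865, edgeR) and 1.04 in 200H (0.817 to 1.33, adjusted p = 0.873).

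P-cadherin was too low in pituitary to be tested. Cdh3 had 2 to 8 counts in each of the 11 young pituitary libraries and 3 or fewer in 4 of them. In the older cohort it had 0 to 11 counts, and 10 of 11 libraries were at or under 3 counts, which corresponds to between 0.256 and 0.637 CPM. No difference in Cdh3 was detectable in pituitary at this depth.

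**Figure D2:**
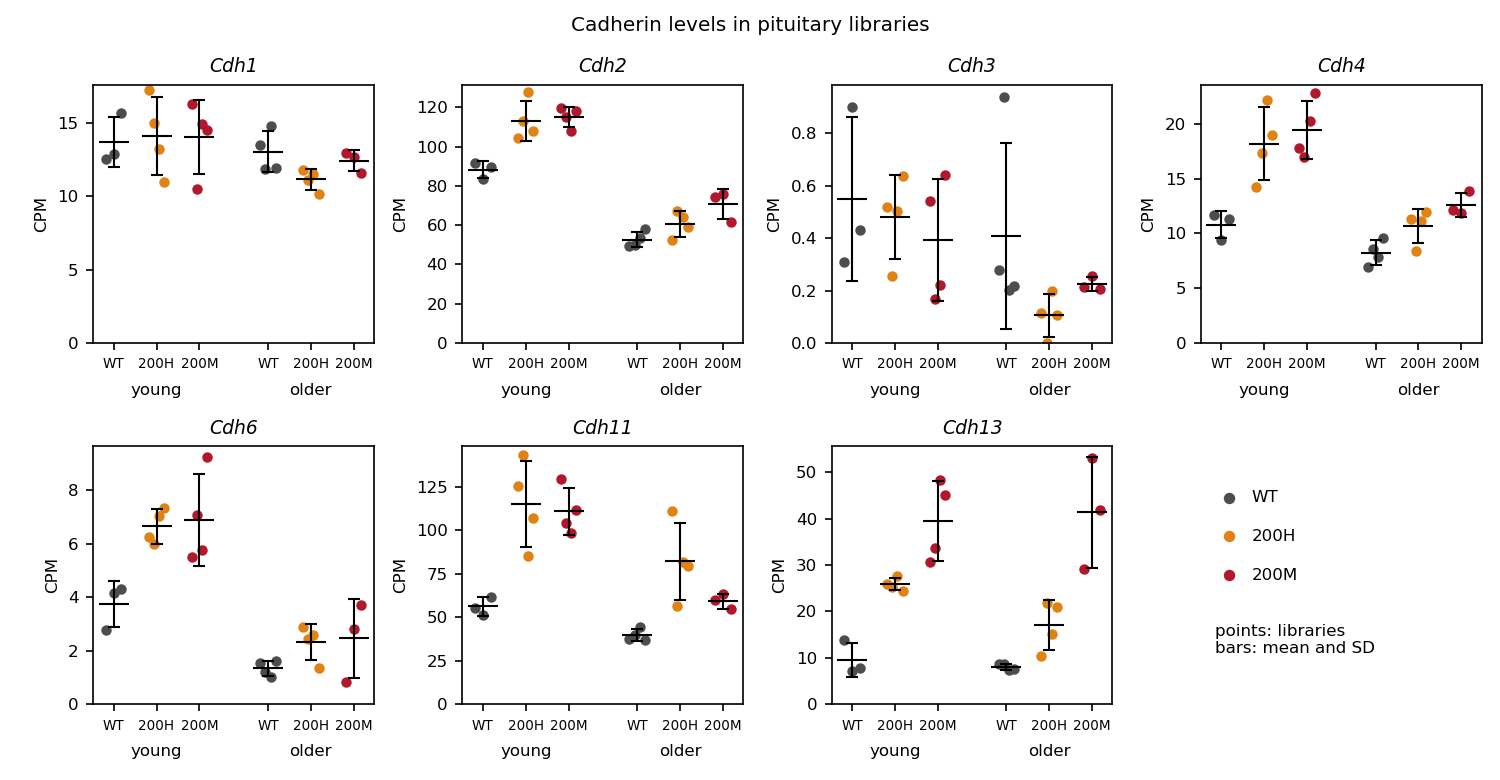
CPM of the 7 members, on linear axes from 0, in every pituitary library by genotype and cohort, with 1 point per library and bars for the mean and SD. The mutant points of Cdh13 and Cdh11 lie above all WT points in both cohorts, whereas those of Cdh1 lie among or near the WT points.

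In the older pituitary N-, R-, OB- and T-cadherin were raised in homozygotes, and OB- and T-cadherin in heterozygotes. In 200M against WT, 4 of 6 tested members were called, all raised, where 21.4% of 14711 tested genes were called and 11.7% were raised. In 200H against WT, 2 of 6 were called, both raised, where 12.2% of tested genes were called and 7.09% were raised. The median log2 change of the tested members was 0.59 in 200M and 0.56 in 200H, beside −0.013 and −0.008 over all tested genes.

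Cdh13 stood at 8.62, 8.63, 7.49 and 7.64 CPM in older WT pituitary, at 10.4, 21.8, 15.3 and 20.97 CPM in 200H, and at 29.1, 53.0 and 41.9 CPM in 200M. As in the young mice, the 3 genotypes formed separate ranges. The fold against WT was 5.11 in 200M (3.89 to 6.73, adjusted p = 3.99e-06, edgeR) and 2.12 in 200H (1.54 to 2.92, adjusted p = 0.00583). The 200M libraries were 2.404-fold above the 200H libraries (1.69 to 3.42), a difference that edgeR did not call with the 7 libraries of the 2 groups (adjusted p = 0.0644). It was called by edgeR with all 3 genotypes in 1 fit (adjusted p = 0.0489), without 200H replicate 2 (0.00767), with the replicate block (0.00317, on 6 libraries) and without the filter (1.31e-19), and by DESeq2 (7.16e-05). The same 6 libraries without the block gave an adjusted p of 0.105.

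Cdh11 was the member with more RNA in older heterozygotes than in homozygotes by group mean. It stood at 37.5, 39.6, 44.5 and 37.0 CPM in older WT pituitary, 110.8, 56.6, 81.9 and 79.2 CPM in 200H, and 60.1, 63.1 and 54.5 CPM in 200M. All 7 mutant libraries were above all 4 WT libraries, while the mutant groups overlapped through 200H replicate 2. The fold was 1.501 in 200M (1.30 to 1.73, adjusted p = 0.00119, edgeR) and 2.08 in 200H (1.62 to 2.66, adjusted p = 0.00121). The log2 difference between 200M and 200H was −0.47 (adjusted p = 0.335), and it was called without 200H replicate 2 (log2 −0.62, adjusted p = 0.0192) and without the filter (adjusted p = 0.000311).

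Cdh2 was at 49.4, 49.8, 53.2 and 57.8 CPM in older WT pituitary, 52.2, 67.3, 64.2 and 59.1 CPM in 200H, and 74.1, 75.9 and 61.7 CPM in 200M. The homozygous libraries were above the WT range, and the heterozygous ones overlapped it. The fold was 1.35 in 200M (1.16 to 1.56, adjusted p = 0.00932, edgeR) and 1.16 in 200H (0.999 to 1.34, adjusted p = 0.192). Cdh4 followed the same pattern, at 6.95, 8.54, 7.89 and 9.60 CPM in WT, 11.4, 8.43, 11.1 and 12.0 CPM in 200H, and 12.1, 11.9 and 13.9 CPM in 200M. Its fold was 1.51 in 200M (1.19 to 1.93, adjusted p = 0.0199, edgeR) and 1.29 in 200H (1.01 to 1.64, adjusted p = 0.175). The Cdh2 call was lost without 200M replicate 2 (adjusted p = 0.0587) and the Cdh4 call without 200M replicate 1 (adjusted p = 0.0505) or replicate 3 (adjusted p = 0.0908).

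Cdh6 had 4 to 25 counts per library in the older pituitary and was called in neither comparison. It was at 1.53, 1.196, 1.01 and 1.64 CPM in WT, 2.89, 2.45, 2.58 and 1.377 CPM in 200H, and 0.850, 2.81 and 3.73 CPM in 200M. The 200M libraries included the lowest and the highest value of the older pituitary (log2 0.87, 95% interval 0.00 to 1.74, adjusted p = 0.143, edgeR), and without 200M replicate 1 the adjusted p was 0.0330. Cdh1 stood at 13.5, 11.9, 14.8 and 11.9 CPM in WT, 11.8, 11.1, 11.5 and 10.2 CPM in 200H, and 13.0, 12.7 and 11.6 CPM in 200M. The 4 heterozygous libraries were just below the WT range, with a fold of 0.864 (0.7095 to 1.05, adjusted p = 0.338, edgeR), and the homozygous ones overlapped it, with a fold of 0.964 (0.776 to 1.199, adjusted p = 0.836).

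The mix of cadherin transcripts in pituitary changed in both cohorts. The summed per-length level of the 7 genes was 23.2 ± 1.42 CPM per kb in young WT (SD, n = 3), 35.7 ± 2.21 in 200H and 36.8 ± 2.24 in 200M (n = 4 each). T-cadherin made up 3.68% ± 1.33 of that sum in young WT and 9.55% ± 2.19 in 200M, and OB-cadherin 27.3% ± 1.17 and 33.7% ± 2.71. E-cadherin made up 12.9% ± 1.21 in WT and 8.29% ± 1.18 in 200M, with its own level nearly equal. The Cdh1 to Cdh2 ratio per length was 0.274 ± 0.0334 in young WT, 0.222 ± 0.0527 in 200H and 0.215 ± 0.0383 in 200M, ranges that overlapped between WT and 200M by a small margin. In the older pituitary the ratio was 0.439 ± 0.0593 in WT, 0.327 ± 0.0489 in 200H and 0.311 ± 0.0187 in 200M (n = 3). The older 200M range lay below the WT range, and the 200H range (0.291 to 0.399) overlapped it. T-cadherin there made up 4.54% ± 0.528 of the sum in WT and 15.3% ± 3.66 in 200M.

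Whether homozygotes and heterozygotes were called apart depended on the fit for Cdh13 in both cohorts and for Cdh11 in the older mice, as given above. In 200M against 200H, the edgeR test of the 2 groups called 0 of 6 members in the young pituitary, where 0.0383% of tested genes were called. Of the members 1 (Cdh13) had an unadjusted p under 0.05, as did 5.92% of all tested genes, and DESeq2 called 1 member and 0.276% of genes. In the older pituitary edgeR called 0 of 6, where 0.121% of genes were called. There 2 members (Cdh11 and Cdh13) and 10.6% of genes had an unadjusted p under 0.05, and DESeq2 called 1 member and 0.796% of genes. Cdh13 was the DESeq2 call both times, and its groups were the only ones of a tested member that did not overlap.

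Other measures moved with these genes in pituitary. The summed level of 10 pituitary endocrine genes, all 10 at or above 1 CPM on average in each group, was 165400 to 188800 CPM in young WT, 70690 to 99080 in 200H and 68820 to 88530 in 200M. In the older cohort it was 290400 to 322400 CPM in WT, 151400 to 226900 in 200H and 162400 to 211400 in 200M. Prl and Gh made up most of this sum, with 28800 to 159400 and 24510 to 39190 CPM over the young libraries and 52970 to 211000 and 82570 to 125900 over the older. The sum therefore describes mainly these genes. Tshb, for example, was at 104.1 to 148.1 CPM in young WT and 139.7 to 193.6 in 200M. Of the 10 genes 4 were lowered and 1 raised in young 200M, and 3 were lowered and 1 raised in older 200M. Over all tested genes 10% were lowered and 11.5% raised in young 200M, and 9.77% and 11.7% in older 200M. Mural markers (4 of 5 in WT and 5 of 5 in mutants at or above 1 CPM) summed to 240.9 to 253.6 CPM in young WT, 315.4 to 402.2 in 200H and 329.9 to 370 in 200M, and their older ranges overlapped. Macrophage markers (5 of 5) summed to 30.0 to 36.5 CPM in young WT, 39.4 to 53.1 in 200H and 46.4 to 54.7 in 200M, and in the older mice to 65.1 to 81.9, 87.3 to 115 and 95.4 to 128.5. Fibroblast markers (6 of 6), collagens included, went the other way, from 564.2 to 676.3 CPM in young WT to 311.6 to 381.2 in 200H and 307.3 to 435.2 in 200M, and from 672.4 to 1000 in older WT to 385 to 490.6 and 446.9 to 572.4. Of the fibroblast genes 1 was raised and 1 lowered in young 200M, and 2 were raised and 1 lowered in older 200M. In either direction 21.5% of all tested genes were called in young and 21.4% in older 200M. The neuronal list (4 of 10 in young WT and 200M, 6 of 10 in older WT and 200M) summed to 777.3 to 844.9 CPM in young WT and 928.7 to 1002 in 200M, and to 530.6 to 582.7 and 760 to 826.8 in the older mice. Astroglial and pituicyte markers (5 of 5) summed to 44.3 to 49.7 CPM in young WT and 53.0 to 54.0 in 200M, and to 40.5 to 47.4 and 71.6 to 74.7 in the older mice. Oligodendrocyte markers (2 of 4) summed to 70.6 to 79.9 CPM in young WT and 43.4 to 46.8 in 200M, and to 62.0 to 87.8 and 45.2 to 55.5 in the older mice. Markers of stem and folliculostellate cells (4 of 5) overlapped in the young mice and went from 25.0 to 30.8 CPM in older WT to 36.7 to 41.0 in 200M. Ependymal (2 of 4) and choroid plexus (4 of 5) sums also overlapped in the young mice, and in the older mice they went from 4.70 to 5.67 CPM to 6.91 to 9.74 and from 60.2 to 87.3 CPM to 88.9 to 93.3. Endothelial markers (4 of 5) summed to 146.5 to 154.7 CPM in young WT and 160.5 to 172.3 in 200M, and overlapped in the older mice. The summed markers of other epithelia were lower in mutants as well. The oviduct list (4 of 5, with Epcam among its genes) went from 190.7 to 228 CPM in young WT to 26.8 to 31.4 in 200M and from 282.9 to 352.1 to 29.1 to 38.9 in the older mice. Ovgp1 of this list did not follow the sum. It was at 3.27 to 7.24 CPM in young WT and 4.23 to 6.86 in 200M, and at 1.62 to 3.25 and 2.76 to 4.56 in the older mice. The ovarian surface and mesothelial list (1 of 5 in young WT and 200M) went from 11.4 to 15.7 CPM in young WT to 1.70 to 3.59 in 200M, and from 26.5 to 43.3 to 3.52 to 3.97 in the older mice. Schwann cell and ovarian sums of WT and 200M overlapped in both cohorts. Of the genes in the lists that parted, Pmch, from the neuronal list, was at 0 in every older pituitary library, and no other was at 0 throughout a cohort. The part of these markers in the cadherin changes was not tested.

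In hypothalamus no member was called in any of the 6 genotype comparisons, although 5 of the 7 genes were more abundant there than in pituitary by mean CPM in the young mice. Of 6 tested members edgeR called 0 in young 200M against WT (0.02% of genes called), 0 in young 200H against WT (0.0202%) and 0 in young 200M against 200H (0%). At an unadjusted p under 0.05 these comparisons held 0, 0 and 1 members (Cdh13 in the last), beside 5.65%, 3.93% and 4.6% of all tested genes. DESeq2 called 0 members in each, and 0%, 0.00311% and 0% of genes. In the older hypothalamus edgeR called 0 of 6 in 200M against WT (0.00622% of genes called), 0 in 200H against WT (0%) and 0 in 200M against 200H (0%). Unadjusted, 3 members (Cdh2, Cdh6 and Cdh11) were under 0.05 in 200M against WT, 0 in 200H against WT and 2 (Cdh2 and Cdh11) in 200M against 200H, all lower in 200M. The shares of all tested genes under 0.05 were 18.1%, 2.8% and 19.5%. DESeq2 called 1 of these members, Cdh2 in 200M against 200H (log2 −0.28, adjusted p = 0.0368), where it called 7.04% of genes. In 200M against WT and 200H against WT it called 0 members, and 4.78% and 0.0159% of genes.

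Cdh13 was at 119.6, 124.8, 149.4 and 138.4 CPM in young WT hypothalamus and at 154.5, 141, 131.1 and 132.9 CPM in 200M. The ranges overlapped and the fold was 1.05 (95% interval 0.931 to 1.184). Cdh2 was at 166.3, 175.1, 166.1 and 183 CPM in young WT hypothalamus and at 182.4, 179.1, 172.7 and 192.3 CPM in 200M, a fold of 1.05 (0.951 to 1.17). In older hypothalamus Cdh2 was at 101.3, 97.6, 122.8 and 117 CPM in WT and 96.9, 82.4 and 91.7 CPM in 200M, which did not overlap, and the fold was 0.820 (0.702 to 0.958, adjusted p = 0.190, edgeR). Cdh1 in hypothalamus varied far more than its genotype means, from 0.306 to 19.8 CPM over the young libraries and from 0.813 to 12.3 CPM over the older ones. Pituitary endocrine genes, detected in these libraries, summed to between 8.66 and 59.4 CPM in the young and 48.7 and 171.7 CPM in the older hypothalamus. The highest young sum and the highest young Cdh1 were both in 200M replicate 1. The highest older sums, in 200M replicate 2 (171.7 CPM) and 200H replicate 4 (138.3 CPM), came with 1.70 and 0.996 CPM of Cdh1. Fibroblast markers were at 102.8 and 114.1 CPM in those libraries and at 206.6 CPM in 200H replicate 1, which had 12.3 CPM of Cdh1. In young 200H replicate 3 and WT replicate 3 they were at 112.6 and 112.3 CPM, with 0.306 and 10.5 CPM of Cdh1. The part of either marker list in the Cdh1 values was not tested.

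The difference between tissues was itself tested. The 200M effect was larger in young pituitary than in young hypothalamus for 5 of 6 members, where 10.5% of genes differed. The log2 differences of effect were 1.97 for Cdh13 (SE 0.22, adjusted p = 4.12e-07, edgeR), 1.02 for Cdh11 (SE 0.14, adjusted p = 1.3e-05), 1.00 for Cdh6 (SE 0.25, adjusted p = 0.00971), 0.74 for Cdh4 (SE 0.16, adjusted p = 0.00257) and 0.32 for Cdh2 (SE 0.10, adjusted p = 0.0287). In the older mice it was again larger for the same 5 of 6, where 17.5% of genes differed, at 2.47 for Cdh13 (adjusted p = 1.59e-07), 1.59 for Cdh6 (0.0473), 0.90 for Cdh11 (0.000603), 0.83 for Cdh4 (0.00829) and 0.72 for Cdh2 (0.00242). The calls for Cdh13, Cdh11 and Cdh4 held in every alternative fit. The young Cdh2 call held in 10 of 20 alternatives (adjusted p up to 0.215) and the older Cdh6 call in 8 of 18 (up to 0.164), both depending on single libraries of either tissue, and the young Cdh6 call was lost without WT pituitary replicate 1 (adjusted p = 0.0569). Cdh1 was not called, with a log2 difference of 0.19 in the young (95% interval −0.56 to 0.95) and −0.73 in the older mice (−2.13 to 0.67).

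**Figure D3:**
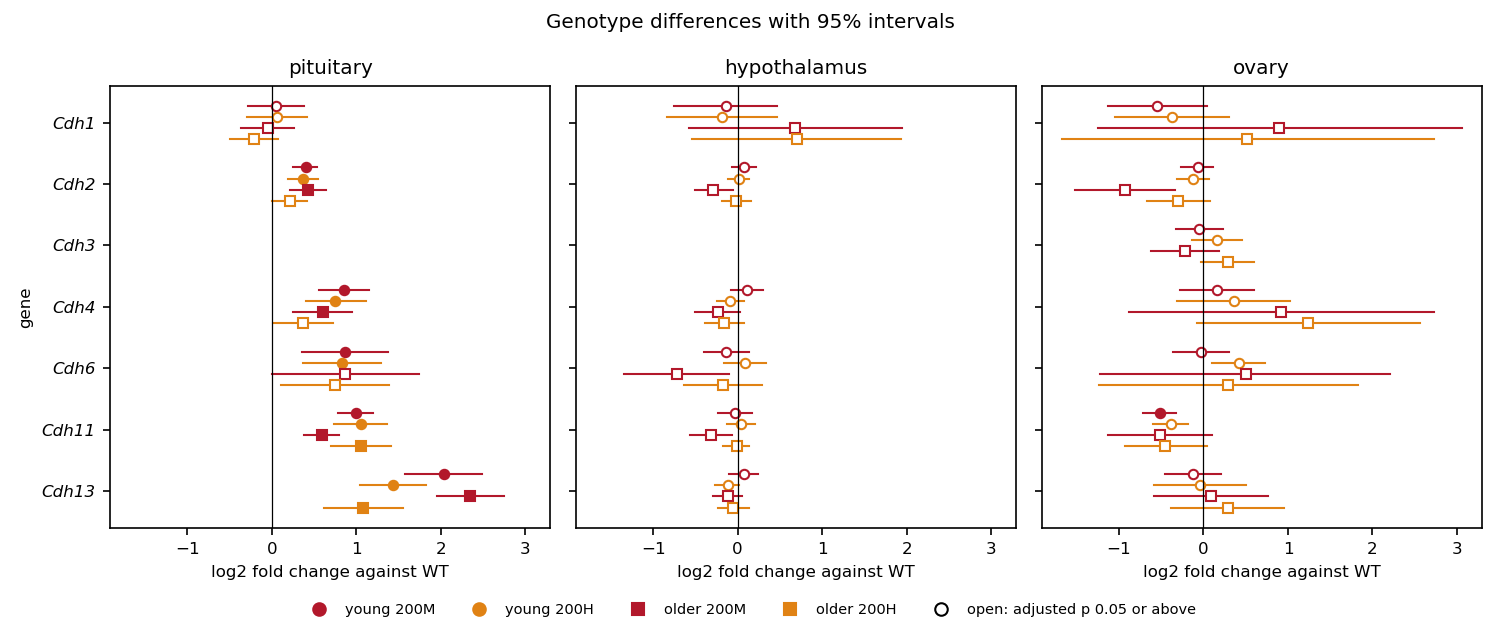
Log2 fold change against WT of each tested member for 200M and 200H in the 3 tissues and 2 cohorts, with bars for 95% intervals. Filled symbols mark an adjusted p under 0.05 and open symbols the rest, circles the young and squares the older cohort. In pituitary the 4 points of Cdh13 lie between 1.08 and 2.35, while all points of hypothalamus are open and the 1 filled point of ovary is Cdh11 at −0.52.

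In the young ovary of 200M mice OB-cadherin was lowered, opposite to its direction in pituitary. Cdh11 stood at 170.6, 148.9, 171.8 and 180.2 CPM in young WT ovary, 123.3, 149.2, 112.1 and 127.1 CPM in 200H, and 103.7, 126.9, 106.6 and 131.8 CPM in 200M. Every 200M library was below every WT library, and 200H overlapped WT only through 200H replicate 2. The fall was 1.44-fold in 200M (log2 −0.52, SE 0.09, adjusted p = 0.0101, edgeR), and in 200H the log2 change was −0.39 (adjusted p = 0.348). This was the only member called in young ovary 200M against WT, 1 of 7, where 2.58% of genes were called. It held in all 14 alternatives, with the adjusted p between 2.21e-05 and 0.0499. Fibroblast markers (6 of 6) summed to 3356 to 4293 CPM in young WT ovary, 2380 to 3752 in 200H and 2534 to 3413 in 200M. The 200M libraries with the least of these markers, replicates 1 and 3 (2621 and 2534 CPM), also had the lowest Cdh11 of their group, as did 200H replicate 3 (2380 CPM) of its own. In WT this did not hold, since replicate 1 had the least markers (3356 CPM) and more Cdh11 than replicate 2 (3374 CPM). The 200M replicates 2 and 4 had 3413 and 3354 CPM of the markers, near WT replicates 1 and 2. Their Cdh11 was at 126.9 and 131.8 CPM, beside 170.6 and 148.9 CPM in those WT libraries. The part of these markers in the Cdh11 values was not tested. In young 200H against WT 0 of 7 members were called by edgeR, where 0.0051% of genes were called. There 2 members and 7.05% of genes had an unadjusted p under 0.05, and DESeq2 called 0 members and 0.503% of genes. In 200M against 200H again 0 of 7 were called, with 0% of genes called, 1 member and 3.36% of genes at an unadjusted p under 0.05, and 0 members and 0% of genes called by DESeq2.

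No member was called in the older ovary. In 200M against WT edgeR called 0 of 7, where 2.71% of genes were called. An unadjusted p under 0.05 was found for 1 member (Cdh2) and 16.5% of genes, and DESeq2 called that 1 member and 7.02% of genes. Cdh2 was at 54.6, 61.1, 46.3 and 56.6 CPM in WT and 35.0, 20.2, 17.8 and 41.3 CPM in 200M. The groups did not overlap, and the log2 change was −0.93 (95% interval −1.52 to −0.34, adjusted p = 0.105 with edgeR and 0.0117 with DESeq2). Cdh11 was at 45.4, 69.2, 86.5 and 99.8 CPM in older WT ovary and 69.5, 37.5, 42.1 and 61.5 CPM in 200M, overlapping groups with a log2 change of −0.51 (adjusted p = 0.378). In older 200H against WT 0 of 7 were called, with 0% of genes called, 0 members and 6.59% of genes at an unadjusted p under 0.05, and 0 members and 0.0895% of genes called by DESeq2. In 200M against 200H 0 of 7 were called, with 1.61% of genes called, 1 member and 13% of genes at an unadjusted p under 0.05, and 0 members and 4.01% of genes called by DESeq2.

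E-cadherin in ovary varied with the content of oviduct epithelial markers, a list of 5 genes of which Ovgp1, the oviductal glycoprotein, defines the oviduct. In the young ovary, 200H replicate 1 and 200M replicate 4 had 23.0 and 26.3 CPM of summed oviduct markers and 12.1 and 11.2 CPM of Cdh1. The other 10 young libraries had 234.8 to 594.7 CPM of the markers and 23.8 to 49.7 CPM of Cdh1. In the older ovary, WT replicate 1, 200H replicate 4 and 200M replicate 3 had 828.4, 3208 and 3294 CPM of the markers and 83.0, 143.9 and 190.2 CPM of Cdh1. The other 9 older libraries had 33.9 to 398.8 CPM of the markers and 5.22 to 33.4 CPM of Cdh1. The libraries with the most oviduct markers also held the highest Cdh4, at 15.1 CPM in 200H replicate 4 and 16.03 CPM in 200M replicate 3 against 0.734 to 6.15 CPM in the others. The part of oviduct tissue in these values was not tested. Since these 5 libraries stood apart, the ovary fits were repeated without them. This left out the young libraries with the least of the markers and the older ones with the most. Among the older libraries kept, Ovgp1 was at 3.68 to 5.26 CPM in WT and at 22.8 to 309.7 CPM in 200M. The older fits therefore do not separate genotype from oviduct content. Cdh11 remained the 1 called member of young 200M against WT (log2 −0.58, adjusted p = 0.00730), Cdh1 had a log2 change of −0.29 (adjusted p = 0.546) in place of −0.55 (adjusted p = 0.349), and in older 200M against WT 0 members were called (Cdh1 log2 0.24 in place of 0.90, Cdh2 −0.78, adjusted p = 0.151). As with all libraries, 0 members were called without them in 200H against WT (lowest adjusted p 0.431 in the young and 0.385 in the older mice), in 200M against 200H (0.823 and 0.335) and in the difference of the 200M effect between cohorts (0.297).

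**Figure D4:**
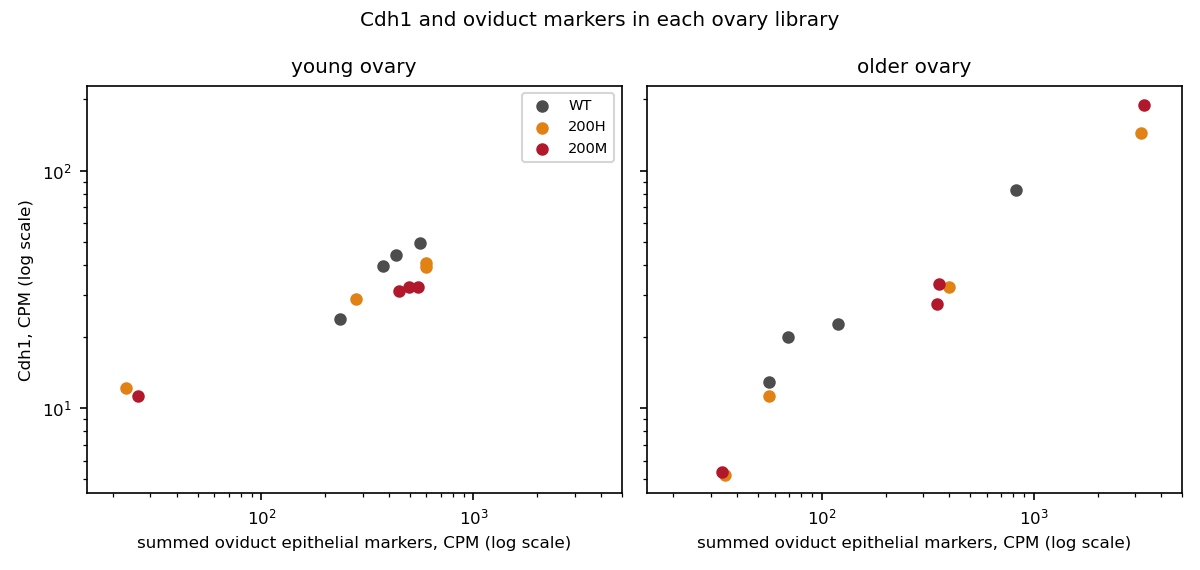
Cdh1 in CPM against the summed CPM of 5 oviduct epithelial markers in each ovary library, both axes logarithmic, with colors for genotype and a panel for each cohort. The 3 older libraries with 828.4 to 3294 CPM of the markers have the highest Cdh1 (83.0 to 190.2 CPM), and the 2 young libraries with under 30 CPM of the markers have the lowest young Cdh1 (11.2 and 12.1 CPM).

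P-cadherin was measured above a few counts only in ovary, and it was called in no comparison of genotypes. Cdh3 ranged from 15.3 to 22.1 CPM in young WT ovary, 19.9 to 26.1 in 200H and 16.1 to 20.3 in 200M, and its log2 change in 200M was −0.05 (95% interval −0.33 to 0.23, adjusted p = 0.906). In the older ovary it ranged from 13.7 to 19.3 CPM in WT and 12.7 to 18.4 in 200M (log2 −0.22, adjusted p = 0.549).

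The 200M effect in pituitary was also larger than in ovary for part of the members. In the young mice this held for 4 of 7, where 10.1% of genes differed, with log2 differences of 2.17 for Cdh13 (adjusted p = 4.31e-05, edgeR), 1.52 for Cdh11 (9.5e-07), 0.90 for Cdh6 (0.0446) and 0.48 for Cdh2 (0.0153). Cdh4 missed the threshold (0.71, adjusted p = 0.0540, and 0.0472 with DESeq2). Without the libraries that stood apart, Cdh6 was no longer called (0.78, adjusted p = 0.0862), and over all alternatives its call held in 8 of 21. With only the 12 libraries whose number occurs in both tissues, Cdh13 and Cdh11 were called and Cdh2 was not (0.39, adjusted p = 0.170). In the older mice 2 of 7 differed, where 5.77% of genes did, Cdh13 by 2.28 (adjusted p = 0.00289) and Cdh2 by 1.38 (adjusted p = 0.0195). The older Cdh2 call was lost without 200M pituitary replicate 1 (adjusted p = 0.0526) or replicate 2 (adjusted p = 0.0608). Without the libraries that stood apart, 3 differed, Cdh13 (2.18, adjusted p = 0.000456), Cdh2 (1.21, adjusted p = 0.0121) and Cdh11 (1.21, adjusted p = 0.00914). Cdh11 with all libraries had a log2 difference of 1.12 (adjusted p = 0.0583). Whether libraries of different tissues came from the same mice is not given in the sources used here, and these tests treated them as independent.

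No difference of the 200M effect between cohorts was called for a member. In pituitary edgeR called 0 of 6 and 0.0273% of genes, in hypothalamus 0 of 6 and 0.154%, and in ovary 0 of 7 and 0.197%. At an unadjusted p under 0.05 there were 1, 2 and 1 members, beside 6.85%, 10.3% and 12% of genes. DESeq2 called 0, 1 and 0 members, beside 0.13%, 5.36% and 1.82% of genes. The largest pituitary difference was that of Cdh11, with a log2 of −0.46 (older minus young) (95% interval −0.75 to −0.16, adjusted p = 0.558). The DESeq2 call in hypothalamus was Cdh2 (log2 −0.36, adjusted p = 0.0420).

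Several partners of cadherins changed in pituitary as well. Of 11 tested catenins and linkers, 2 were raised and 4 lowered in young 200M against WT, where 11.5% of all tested genes were raised and 10% lowered. In older 200M 1 was raised and 5 were lowered, where 11.7% of genes were raised and 9.77% lowered. Heterozygotes had 0 raised and 4 lowered of 11 in the young cohort (6.56% and 5.72% of all genes), and 1 and 3 of 11 in the older (7.09% and 5.14%). The list medians in 200M were −0.05 in both cohorts, beside 0.002 and −0.013 over all genes. Afdn, the nectin-binding scaffold afadin, fell by 0.85 (SE 0.07, adjusted p = 1.44e-06, edgeR) and 0.84 (SE 0.09, adjusted p = 7.13e-05) on the log2 scale in young and older 200M, from 262.2 ± 25.3 to 144.4 ± 9.59 CPM in the young mice. Ctnna1, the epithelial alpha-catenin, fell by 0.47 in both cohorts, Jup (plakoglobin) fell by 0.57 and 0.55, and Ctnnd1 (p120-catenin) fell by 0.28 and 0.38. Ctnna2, the neural alpha-catenin, rose by 0.29 (adjusted p = 0.00834) and 0.49 (adjusted p = 0.00175). Ctnnb1, beta-catenin, had log2 changes of 0.03 and −0.01, neither called.

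Among 15 other cadherins, 12 were tested in young pituitary and 4 were raised and 1 lowered in 200M, where 21.5% of all genes were called. Of 11 tested in older pituitary 2 were raised in 200M, near the 21.4% of all genes called, and in 200H 0 of 12 were called in either cohort (12.3% and 12.2% of all genes). Cdh7 was raised in both cohorts of 200M, by log2 0.27 and 0.46 (adjusted p = 0.0376 each), with ranges that overlapped WT. The medians of this list in 200M were 0.25 and 0.18. Nectins, which recruit afadin, had 1 of 4 raised in young 200M and young 200H (Nectin3, log2 0.51 and 0.45) and 0 of 4 called in the older comparisons, beside 21.5% and 12.3% of all genes called in those young comparisons and 21.4% and 12.2% in the older ones. Among 6 sheddases and surface regulators, Adam15, a metalloprotease, was raised in both genotypes and both cohorts, in 200M by log2 0.70 (SE 0.09, adjusted p = 9.03e-05) and 0.68 (SE 0.13, adjusted p = 0.00296), while Adam10, the best known cadherin sheddase, was not called at 0.16 and 0.18.

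Among 8 known repressors of Cdh1, Zeb1 was the gene raised in both cohorts. Of 7 tested in young and 6 in older 200M pituitary, 1 was raised and 1 lowered each time, beside 21.5% and 21.4% of all genes called. Snai2, encoding SLUG, fell by 1.20 (SE 0.23, adjusted p = 0.00185, edgeR) and 1.33 (SE 0.34, adjusted p = 0.0156) on the log2 scale, from 34.7 ± 7.84 to 14.6 ± 6.37 CPM in the young and from 12.7 ± 5.82 to 4.94 ± 0.458 CPM in the older mice. Zeb2 (0.20 and 0.53), Snai1 (0.19 and 0.33) and Tcf3 (−0.14 and −0.23) were not called. In 200H 1 of 6 tested was raised and 1 lowered in the young, and 2 of 6 were raised in the older mice (Zeb1 and Tcf4). Over all tested genes 6.56% were raised and 5.72% lowered in young 200H, and 7.09% and 5.14% in older 200H. In hypothalamus no gene of these 5 lists was called in any comparison with WT, where at most 0.0202% of all tested genes were called. In ovary 3 were called, all in young 200M against WT, where 2.58% of all tested genes were called. These were Tcf3, raised by 0.30 (adjusted p = 0.0291, edgeR), Vcl, lowered at −0.31 (adjusted p = 0.0492), and Nectin2, lowered at −0.45 (adjusted p = 0.0202).

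**Figure D5:**
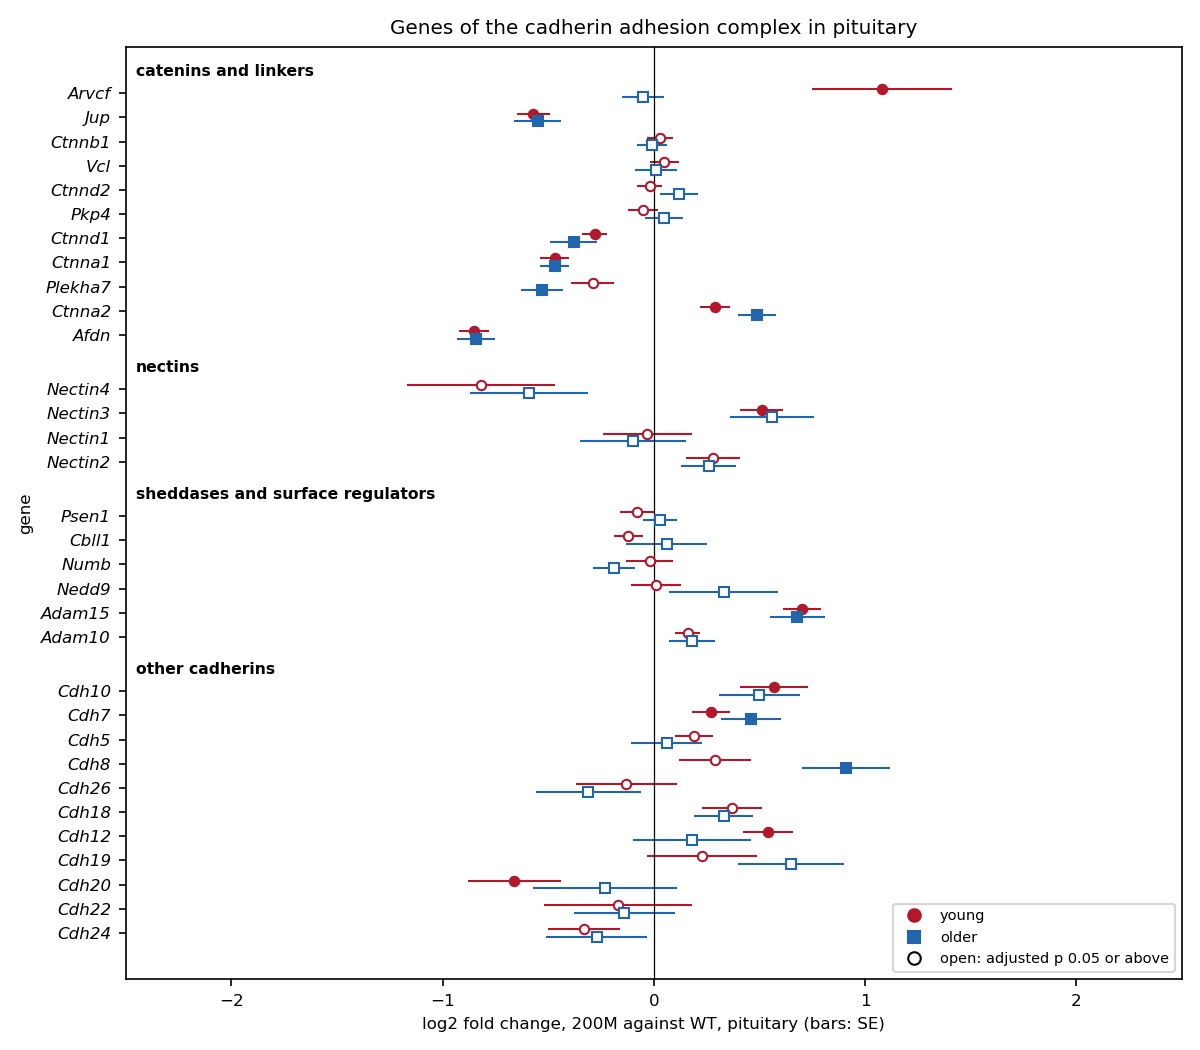
Log2 fold change of 200M against WT in pituitary for catenins and linkers, nectins, sheddases and other cadherins tested in both cohorts, with red circles for young and blue squares for older mice, bars for the SE and open symbols for an adjusted p of 0.05 or more. Afdn is the lowest of the catenins and linkers, at −0.85 and −0.84, and Adam15 the only filled gene of its list, at 0.70 and 0.68.

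Across the 22 pituitary libraries, after the mean of each cohort was subtracted, Cdh13 resembled Cdh2 (Pearson r = 0.838) and Cdh4 (r = 0.805) more than Cdh11 (r = 0.557) or Cdh6 (r = 0.549). Cdh11 had r = 0.515 with Cdh2 and 0.664 with Cdh4. Cdh1 followed none of them, with r between −0.197 and −0.012. Among 14314 genes, those most like Cdh13 were Crisp1 (r = 0.958), Camk2a (0.953) and Fgf1 (0.944), and those most like Cdh11 were Smoc2 (0.934), Gas6 (0.931) and Gal (0.923). Closest to Cdh2 were Dnm3 (0.917), Nr3c2 (0.915) and Kcnk3 (0.909), to Cdh4 Dnah1 (0.926), Lgmn (0.905) and Marcksl1 (0.898), and to Cdh6 Dhdh (0.823), Akap7 (0.822) and Msra (0.801). All of these points share their libraries and the genotype difference, so the values only describe likeness.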

How the data were processed

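RNA-seq libraries of pituitary, hypothalamus and ovary were analyzed from 18 deposited tables of raw read counts per gene. Per the labels and the study's methods, the authors aligned young libraries (rRNA-depleted, stranded) with STAR 2.7.1a and counted reads with featureCounts on the reverse strand. Older pituitary and hypothalamus libraries (poly(A), unstranded) were counted with HTSeq 0.9.1, and older ovary with featureCounts without strand. The authors' own DESeq2 columns of fold changes and p-values in these tables were not used, nor were 3 per-sample count columns whose header repeats a name. Of the 69 libraries 66 occurred in 2 tables, with 0 genes differing between them. Among 99 pairs of replicates none agreed within sampling noise (lowest chi-square per degree of freedom 1.869).

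Groups and replicate numbers were taken from the labels, and 1 young WT pituitary library, whose count column is numbered 3 where the title left in its group is numbered 4, was used without a number. Counts were fitted per comparison with edgeR 4.0.16 (R 4.3.3, limma 3.58.1, filterByExpr, TMM, quasi-likelihood F test) and adjusted over all tested genes by Benjamini-Hochberg at 0.05. CPM were scaled by TMM within each tissue and cohort, so a level is comparable only there, and per-length levels divide by the merged exon length. Tissue contrasts and differences of effect were fitted on the libraries of both tissues or cohorts together. Intervals are 95% intervals of the log2 fold change. Where counts were at 3 or fewer the value was treated as the floor. Alternatives were DESeq2 1.42.0 (an alternative tool), RLE size factors, no filter, all 3 genotypes in 1 fit, the replicate number as a block and each library left out in turn. Chosen after seeing the data were leaving out the 5 ovary libraries that stood apart in oviduct markers, fitting only libraries whose number both sides share, and blocking on the number across tissues. The pipeline was tested on simulated counts. In each design 200 genes were changed, none of them with low mean counts, so the rates do not cover members such as Cdh6 in older pituitary. The real young 200M pituitary comparison called far more genes, 21.5% of those tested. With the young pituitary design (17871 genes) 74% of genes changed 1.5-fold and 94% of those changed 2-fold were recovered, with 6.67% false calls. The older hypothalamus design (15898 genes) recovered 67% and 90%, with 7.65% false calls.

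The 7 genes, the partner lists (catenins and linkers, other cadherins, nectins, sheddases and surface regulators, repressors of Cdh1) and the marker lists were chosen with earlier results of these data known. Partner genes were named where called in 200M against WT in both cohorts, and others named as examples or as single calls were picked after their values were seen. Like genes were the 3 with the highest Pearson r to a called member. Same-numbered libraries of different groups deviated together in 14 of 64 pairs (r over 0.1, range −0.667 to 0.459), and those of 1 genotype in different tissues in 7 of 65 (range −0.121 to 0.264), so the numbers were not taken to pair the samples. Scripts used Python 3.11.15 with pandas 2.3.3 and numpy 2.4.6.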

Additional observations from a re-analysis of the deposited data

Results flagged for a closer look

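Of 96 sets of 4 libraries, each holding the values of 1 member in 1 group, 11 held a library far from the others by Dixon's test. Chance alone does this for about 1 set in 20, but sets of different members share libraries and are not independent. In young hypothalamus these were Cdh1 in WT replicate 1 (16.97 CPM, the others 10.54 to 11.44) and in 200H replicate 3 (0.3061 CPM, the others 13.42 to 15.72), and Cdh11 in 200H replicate 4 (111.8 CPM, the others 89.91 to 93.08) and in 200M replicate 4 (77.23 CPM, the others 96.28 to 98.05). In older hypothalamus Cdh13 in 200H replicate 4 was at 106.9 CPM, the others at 136.9 to 141.2. In young ovary Cdh1 in 200M replicate 4 was at 11.24 CPM (the others 31.25 to 32.43), and Cdh2 in 200H replicate 1 at 68.49 CPM (the others 54.19 to 56.49). In older ovary Cdh1 in WT replicate 1 was at 83.03 CPM (the others 12.81 to 22.58) and in 200M replicate 3 at 190.2 CPM (the others 5.386 to 33.45), Cdh4 in 200M replicate 3 at 16.03 CPM (the others 0.7345 to 2.703), and Cdh3 in 200H replicate 2 at 25.25 CPM (the others 19.02 to 19.53). Of these, 200H replicate 1 and 200M replicate 4 of the young ovary and WT replicate 1 and 200M replicate 3 of the older ovary were among the 5 libraries that stood apart in oviduct markers.

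The 200M effect differed between tissues in 16 tests of the difference itself (edgeR, adjusted p under 0.05). Between young pituitary and hypothalamus the log2 differences were 0.32 for Cdh2, 0.74 for Cdh4, 1.00 for Cdh6, 1.02 for Cdh11 and 1.97 for Cdh13. Between young pituitary and ovary they were 0.48 for Cdh2, 0.90 for Cdh6, 1.52 for Cdh11 and 2.17 for Cdh13. Between older pituitary and hypothalamus they were 0.72 for Cdh2, 0.83 for Cdh4, 1.59 for Cdh6, 0.90 for Cdh11 and 2.47 for Cdh13, and between older pituitary and ovary 1.38 for Cdh2 and 2.28 for Cdh13.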

How the results depend on the processing

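Of 1020 alternative values of single members none reversed, 940 stayed on their side of the threshold, 51 fell short of it and 29 newly passed it. Of 423 alternative counts of called members 405 stayed within 1.5 times. The replicate block leaves out libraries whose number is not shared. In young pituitary 200H against WT the block fit used 4 libraries in place of 7 and called 2 members in place of 5 (Cdh2, Cdh4 and Cdh6 had adjusted p of 0.0674, 0.0565 and 0.0895), and the same 4 libraries without the block also gave 2. In older pituitary 200M against 200H it used 6 in place of 7 and called 1 (Cdh13) in place of 0, and the same 6 without the block gave 0. The block changed the count of members called in no other of the 22 genotype and tissue comparisons. With the number as a replicate block across tissues, 2 effects differed between young pituitary and ovary in place of 4, on 12 libraries in place of 15, and the same 12 without the block also gave 2. Among the other differences between pituitary and another tissue that block gave 4 in place of 5 for hypothalamus in either cohort and 2, as before, for older ovary. The cohort differences have no block, since the cohorts are different mice. In older pituitary 200M against 200H, 2 (Cdh11 and Cdh13) were called without the filter on low counts, 1 (Cdh13) with DESeq2 and 1 (Cdh13) with all 3 genotypes in 1 fit. In young pituitary 200M against 200H, 1 was called without the filter and 1 with DESeq2 in place of 0, each time Cdh13. Without the filter 2 were called in young ovary 200M against WT in place of 1 (Cdh1 at an adjusted p of 0.000523) and 1 in older hypothalamus 200M against WT in place of 0. DESeq2 called 1 in place of 0 in older hypothalamus 200M against 200H, in older ovary 200M against WT and in the cohort difference of hypothalamus. Without the ovary libraries that stood apart, 3 differences between older pituitary and ovary were called in place of 2. The causes were not tested beyond the fits on the same libraries. Over single libraries left out, the counts ranged from 4 to 5 in young pituitary 200M and 200H against WT, 3 to 4 in older 200M against WT, 0 to 2 in older 200M against 200H (2 without 200H replicate 2), 1 to 3 in the older pituitary against ovary difference (1 without pituitary 200M replicate 1 or 2), 3 to 4 in the young one, and 4 to 5 in the pituitary against hypothalamus difference of either cohort. WT pituitary against ovary ranged from 6 to 7 and older WT pituitary against hypothalamus from 5 to 6. Cdh3 passed the filter on low counts in no genotype comparison of pituitary or hypothalamus.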
